A study of Rattus norvegicus with 9 samples.

Results

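Fos, Egr1, Atf3, Jun, Ier2, Ier3, Zfp36 and Btg2 are immediate early genes, and their RNA was followed in 9 libraries of rat kidney. A list of 10 such genes was looked up by symbol in the authors' deposited table of FPKM values (fragments scaled by transcript length and library depth), which names 11235 genes, and 8 of the 10 were found. Junb and Dusp1, the other 2, were not analysed here under those names. The list was chosen by the measured levels of these genes in the same libraries, where they stood out between libraries and between groups. Their levels and fold changes are therefore given as a description, with no test of their own. Ensembl IDs and chromosomes in the table are ENSRNOG00000008015 on chromosome 6 for Fos, ENSRNOG00000026293 on 5 for Jun, ENSRNOG00000003745 on 13 for Atf3 and ENSRNOG00000019422 on 18 for Egr1. They are ENSRNOG00000067274 on 19 for Ier2, ENSRNOG00000058388 on 1 for Zfp36, ENSRNOG00000003300 on 13 for Btg2 and ENSRNOG00000000827 on 20 for Ier3.

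Immediate early genes are switched on within minutes of a stimulus, without new protein synthesis, because the factors that bind their promoters are already in the nucleus. Growth factors, oxidative stress, calcium and mechanical handling act through MAP kinases on serum response factor with its ETS partners, and on CREB and ATF factors. Most of their messenger RNAs decay quickly, so a pulse of transcription leaves a short pulse of RNA. In the kidney they are known as early responders of tubular cells to ischaemia and reperfusion, and they also respond to tissue handling and dissociation. The AP-1 factor is a dimer of a Fos protein with a Jun protein, and Atf3 can join it.

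The 9 libraries formed 3 groups of 3. The I/R + rapamycin group consisted of kidneys with 45 min of ischaemia and then reperfusion from rats given rapamycin, an inhibitor of mTOR complex 1. The I/R group had ischaemia of 45 min followed by reperfusion without the drug, and the sham group had the operation without ischaemia. All were labelled wild-type Sprague-Dawley rats of 6 to 8 weeks and 200 to 220 g, and all libraries were labelled batch 1. The labels conflicted on the rest. The series design gave males, clamping of the left renal artery, and 1 mg/kg of rapamycin a day by intraperitoneal injection. In the protocols of the samples, rats were of both sexes and took the drug by oral gavage from the day before surgery, at 1 or 2 mg/kg a day, with reperfusion for 3 or 7 days. Dose, route, sex and time after injury of the sequenced kidneys are thus unsettled, and no label says that each replicate was a separate animal.

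Total counts ranged from 44582251 to 60538627 per library. The labels gave both kidney and renal tubular cell as the source, and the protocol gave kidney tissue, with no step that isolates tubular cells. All 12 listed markers of the proximal tubule were measured, and so were 7 of 8 podocyte markers, 10 of 10 endothelial markers and 9 of 10 macrophage and dendritic cell markers. In such a bulk sample, more RNA of a gene per cell and more cells that carry it cannot be told apart. Library I/R 1 stood below the other 2 of its group in the genes described here, and the sham libraries were spread out, with sham 1 low and sham 3 highest. The fold changes, correlations and spreads below are also given without I/R 1, sham 3 or both, a choice made with the levels of these genes known.

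The AP-1 genes Fos, Jun and Atf3 were low in all 3 rapamycin kidneys and ran from low to high within the I/R and the sham group. Fos, which encodes the partner of Jun in AP-1, was at 14.1, 14.97 and 24.5 CPM (counts scaled to library size) in I/R + rapamycin, at 17.5, 259.5 and 316 CPM in I/R and at 34.4, 199.8 and 512 CPM in sham, with replicates in the order 1 to 3. Library I/R 1 thus lay within the range of the rapamycin libraries, and sham 3 was the highest of all 9. Jun, the other subunit of AP-1, was at 104, 107 and 136 CPM in I/R + rapamycin, at 166, 562 and 582 CPM in I/R and at 255, 514 and 813 CPM in sham. It was the only one of the 8 genes with every rapamycin library below every I/R library, by a margin of 136 against 166 CPM. Atf3, a factor of the ATF/CREB family induced by cell stress, was at 8.68, 9.51 and 6.62 CPM in I/R + rapamycin, at 6.70, 63.7 and 58.9 CPM in I/R and at 14.0, 28.6 and 117 CPM in sham. Here I/R 1 again fell among the rapamycin libraries, while sham 1 lay just above them.

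Egr1 and Ier2 were also low in the rapamycin libraries and I/R 1. Egr1, a zinc finger transcription factor of growth and stress responses, was at 53.7, 44.2 and 80.6 CPM in I/R + rapamycin, at 45.5, 334 and 351 CPM in I/R and at 91.2, 163 and 356 CPM in sham. All 3 rapamycin libraries lay below all 3 sham libraries, and I/R 1 was inside the rapamycin range. Ier2, which encodes a nuclear immediate early protein, was at 40.01, 34.7 and 44.2 CPM in I/R + rapamycin, at 33.8, 105 and 122 CPM in I/R and at 40.03, 82.9 and 118 CPM in sham. I/R 1 was the lowest of the 9 libraries for Ier2, and sham 1 lay within the rapamycin range.

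Zfp36 and Btg2, whose products restrain other responses, were low in the same libraries. Zfp36 encodes tristetraprolin, which binds AU-rich messenger RNAs and speeds their decay. It was at 186, 191 and 205 CPM in I/R + rapamycin, at 160.0, 394 and 422 CPM in I/R and at 191, 269 and 330.5 CPM in sham. Btg2, an antiproliferative gene also induced by p53, was at 68.6, 63.2 and 58.3 CPM in I/R + rapamycin, at 50.1, 274 and 304 CPM in I/R and at 83.6, 158 and 325 CPM in sham. For both genes I/R 1 was the lowest library of all, and the rapamycin libraries were close together, with the highest 1.10 times the lowest for Zfp36 and 1.18 times for Btg2.

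Ier3 was the exception. This gene, which encodes an early response protein tied to cell survival under stress, was at 70.4, 62.1 and 48.4 CPM in I/R + rapamycin, at 40.5, 52.4 and 59.1 CPM in I/R and at 45.9, 61.4 and 49.4 CPM in sham. The 3 groups overlapped throughout, and the highest library was I/R + rapamycin 1, which was the lowest for Fos and Jun. Its highest library was 1.74 times its lowest over all 9, against 36.4 times for Fos and 17.6 times for Atf3.

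**Figure D1:**
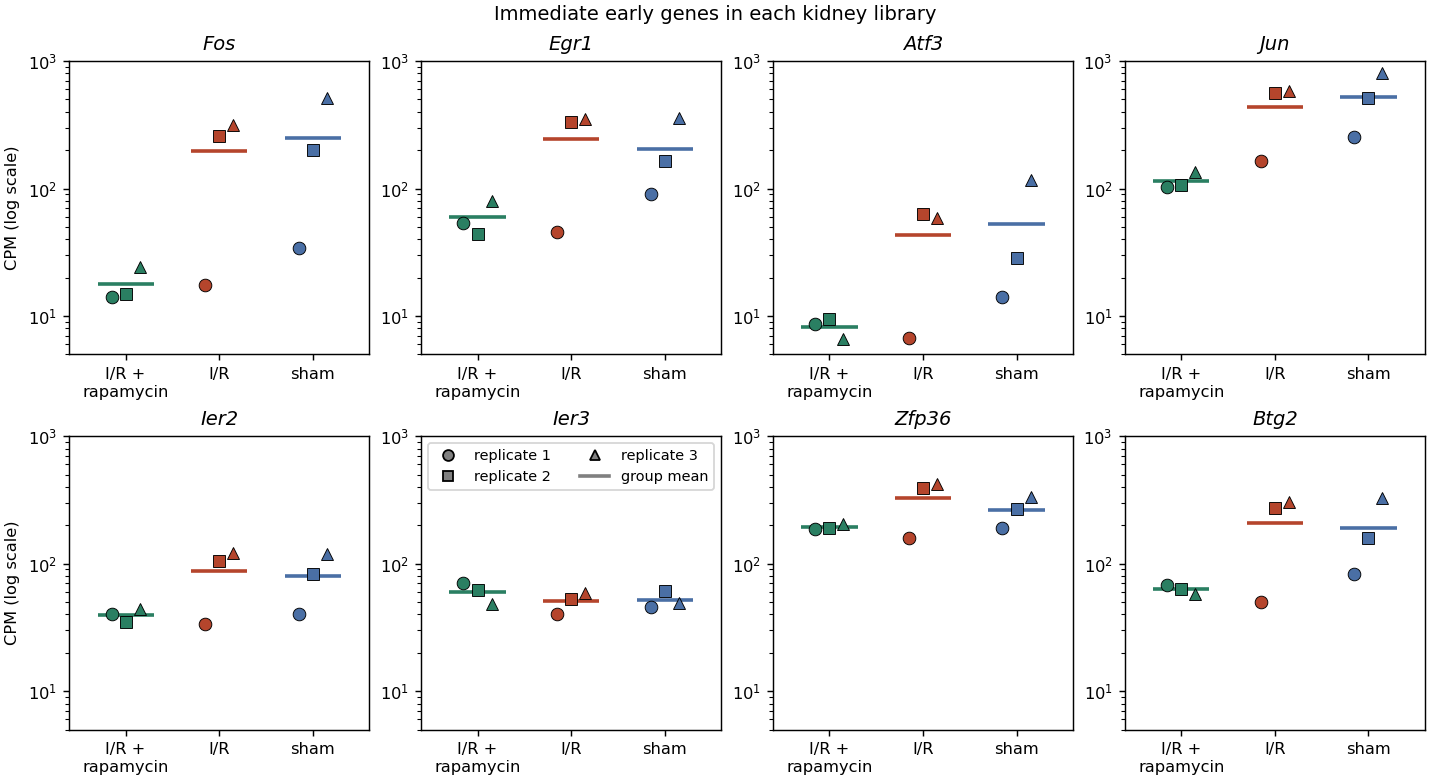
CPM of each gene in each of the 9 libraries (points, shaped by replicate number) on a log axis, with the group mean as a line. In all genes but Ier3 the I/R group splits into 1 low library, I/R 1, and a pair of high libraries, and the rapamycin libraries lie close together at the low end.

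Levels can be compared between genes on the FPKM scale, which divides by transcript length. In the rapamycin kidneys Zfp36 had the highest mean, at 93.1 ± 6.81 FPKM (SD, n = 3, as for all means here), followed by Ier3 at 47.5 ± 7.90 FPKM. Next came Btg2 at 23.1 ± 1.5 FPKM, Jun at 22.3 ± 3.98 FPKM and Egr1 at 16.7 ± 5.72 FPKM, neighbours whose ranges of mean ± SD overlapped. Fos at 9.78 ± 3.42 FPKM and Ier2 at 6.85 ± 0.986 FPKM also overlapped, and Atf3 was lowest at 3.77 ± 0.598 FPKM. Within every rapamycin library, however, Jun was above Egr1 and Fos was above Ier2. In the I/R group the order began with Zfp36 at 162 ± 70.0 FPKM and Fos at 112 ± 90.3 FPKM, and in sham with Fos at 139 ± 136 FPKM and Zfp36 at 130 ± 32.7 FPKM. The ranges of mean ± SD of these leading pairs overlapped in both groups. Within libraries the ratio of Fos to Zfp36 was 0.125, 0.75 and 0.854 in I/R, so Zfp36 was the higher in each. In sham it was 0.205, 0.846 and 1.76. By group means Fos was thus sixth of 8 in the rapamycin group and among the first 2 in the others. This rank was not particular to rapamycin. In I/R 1, at 10.3 FPKM, and in sham 1, at 20.0 FPKM, Fos also stood below Zfp36, Ier3, Btg2, Jun and Egr1.

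The ratio of Fos to Jun separated the libraries as well. On the FPKM scale it was 0.385, 0.396 and 0.511 in I/R + rapamycin, 0.301, 1.31 and 1.54 in I/R and 0.382, 1.10 and 1.79 in sham. Libraries in which Fos was low therefore held less Fos RNA than Jun RNA per length, and the 4 libraries in which it was high, I/R 2, I/R 3, sham 2 and sham 3, held more. The 2 genes did not change by the same factor between libraries.

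Across the 9 libraries, 7 of the 8 genes moved together. The mean of their log2 CPM, each gene set to its own mean over the libraries, was -0.93, -0.99 and -0.82 in the rapamycin libraries with all 8 genes counted. It was -1.10, 1.10 and 1.21 in the I/R libraries and -0.46, 0.58 and 1.41 in the sham libraries. I/R 1 was therefore the lowest of all libraries in this mean and sham 3 the highest. I/R 1 was among the lowest 4 libraries for all 8 genes and the lowest for 4, and sham 3 was the highest for 5. I/R 2, I/R 3 and sham 3 were each among the top 3 libraries for 7 genes.

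The 21 pairs of genes without Ier3 had Pearson correlations of log2 CPM from 0.86 to 0.99 over the 9 libraries, with a median of 0.96, and Spearman correlations from 0.75 to 0.98. Pairs with Ier3 had Pearson correlations from -0.11 to 0.19. Once each library was set to the mean of its own group, so that differences between groups no longer counted, the pairs without Ier3 still lay between 0.93 and 1.00, and the pairs with Ier3 lay between 0.43 and 0.59. Without I/R 1 and sham 3, over 7 libraries, the Pearson correlations ranged from 0.87 to 0.99 for pairs without Ier3 and from -0.21 to 0.01 for pairs with it. These correlations describe 9 libraries that fall into a low and a high set. The genes share those libraries and their depth, and were listed together because of such a pattern.

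Transcripts from other sources moved with these genes in part. Hba-a1, which encodes an alpha globin chain of erythrocytes, stood at 80.7, 51.5 and 301 CPM in I/R + rapamycin, at 736, 1891 and 1869 CPM in I/R and at 178, 145 and 1513 CPM in sham. It was high in I/R 2, I/R 3 and sham 3, like the 7 genes, but I/R 1 stood above all 3 rapamycin libraries and sham 2 stood low. The summed level of the 4 measured of 7 erythrocyte markers ranged from 252 to 720 CPM in I/R + rapamycin, from 1421 to 3547 CPM in I/R and from 432 to 2763 CPM in sham. Neutrophil markers were not among the genes named (0 of 6), and the 1 measured of 10 lymphocyte markers did not exceed 3.26 CPM in any library.

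Hspa1b, a heat shock chaperone gene, was at 29.9, 29.6 and 32.8 CPM in I/R + rapamycin, at 22.4, 75.3 and 115 CPM in I/R and at 54.0, 174 and 856 CPM in sham. It also had I/R 1 lowest and sham 3 highest, but I/R 2 and I/R 3 stayed below sham 2. The summed markers of macrophages and dendritic cells ranged from 795 to 1105 CPM in I/R + rapamycin, from 813 to 865 CPM in I/R and from 820 to 1022 CPM in sham, and those of endothelium from 805 to 845 CPM, from 853 to 884 CPM and from 859 to 874 CPM in the same 3 groups. These 2 lists varied far less than the 7 genes. Summed proximal tubule markers ranged from 11912 to 13962 CPM in I/R + rapamycin, from 13952 to 15439 CPM in I/R and from 11955 to 15641 CPM in sham. The part of blood content, heat shock RNA and tubular share in the levels of the 7 genes was not tested.

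**Figure D2:**
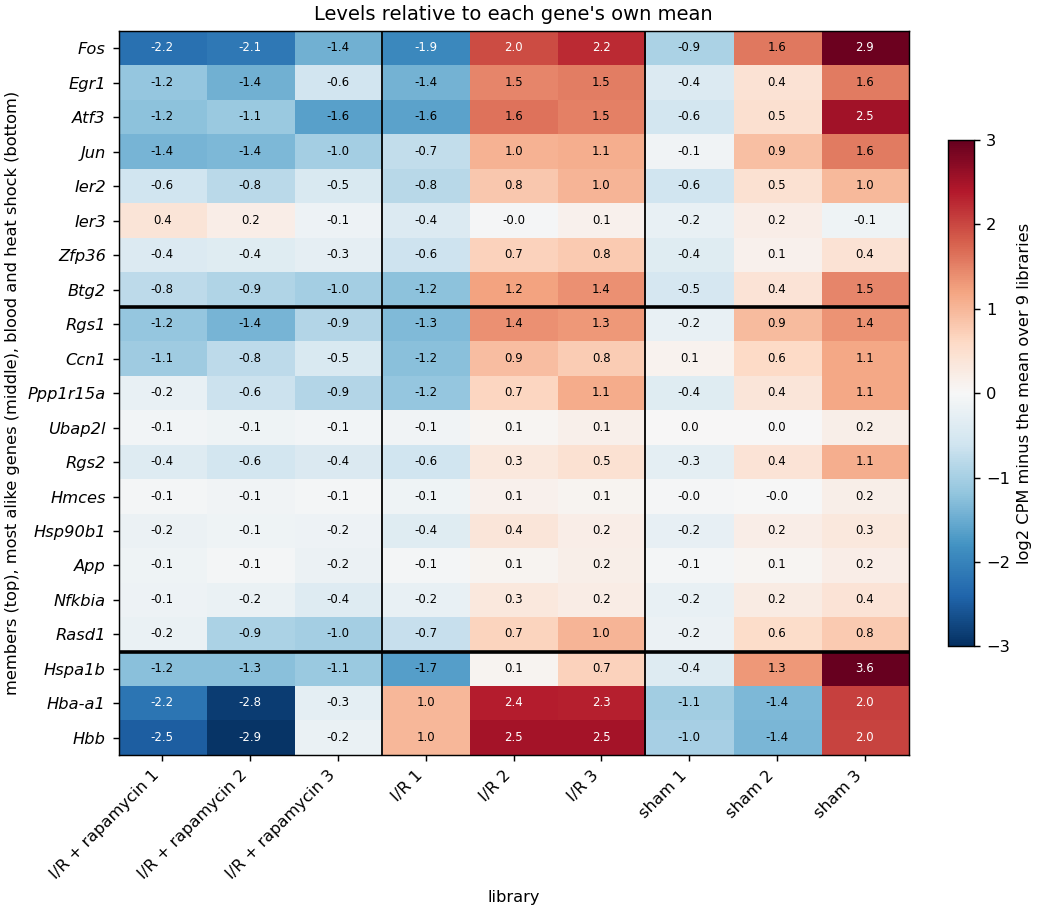
Heat map of log2 CPM minus the gene's mean over the 9 libraries, for the 8 genes (top), the 10 named genes most like them (middle) and Hspa1b, Hba-a1 and Hbb (bottom). Columns are libraries, numbers are the plotted values, and the colours stop at 3 in either direction. I/R 1 is blue beside I/R 2 and I/R 3 in red for every gene at the top except Ier3, which stays near 0.

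The spread between libraries of one group was wide for these genes compared with other genes. The pooled standard deviation of log2 CPM within groups was 1.78 for Fos, 1.40 for Atf3, 1.15 for Egr1, 1.02 for Btg2, 0.78 for Jun, 0.75 for Ier2, 0.51 for Zfp36 and 0.26 for Ier3. The median over the 11308 genes with a mean of 5 CPM or more was 0.16, and 99.8% of them had a smaller value than Fos and 81.6% a smaller one than Ier3. Of the 8 genes, 7 were among the 5% of genes with the widest spread. Without I/R 1 and sham 3 this held for 4 of the 8, with a standard deviation of 0.95 for Fos and 0.19 for Zfp36, where the median gene had 0.14. The genes were listed because they stood out between these libraries, so nothing is read from their ranks by spread. In the rapamycin group the ratio of highest to lowest library lay between 1.10 for Zfp36 and 1.82 for Egr1, and it was smaller than in the other groups for every gene but Ier3, with 1.45 in I/R + rapamycin, 1.46 in I/R and 1.34 in sham. In I/R this ratio was 18.0 for Fos, 9.51 for Atf3 and 7.71 for Egr1, and in sham it was 14.9, 8.34 and 3.90 for the same genes.

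**Figure D3:**
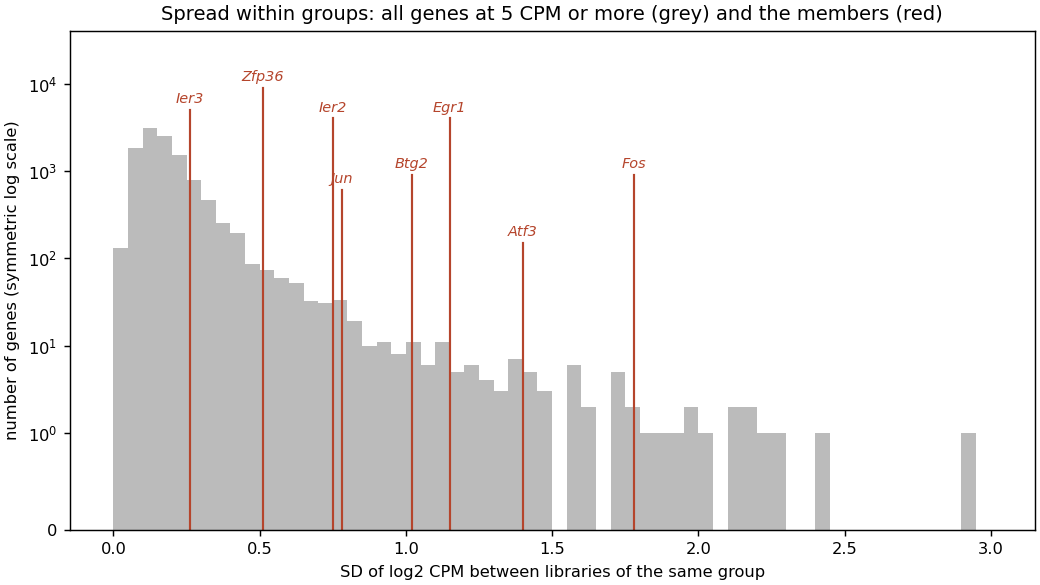
Histogram of the pooled standard deviation of log2 CPM between libraries of the same group over 11308 genes (grey, symmetric log axis for the number of genes), with the 8 genes as red lines whose heights carry no value. Fos lies at 1.78 and Ier3 at 0.26, where the median gene lies at 0.16.

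Promoter sequence was at hand for 4 of the 8 genes and is shown as a description. There was none for Fos, Jun, Atf3 and Ier3. Matches to 2 known classes of control element of immediate early genes are marked. The sequences are the 250 bases before the annotated start, 5′ to 3′ on the gene's own strand, from RefSeq with the build GRCr8. Capitals mark CArG boxes, the binding motif of serum response factor, and the letters of the cyclic AMP response element, in full (TGACGTCA) or its short form (TGACG), on either strand. The windows are chr18:26736828-26737077 on the plus strand for Egr1, chr1:92799109-92799358 on the minus strand for Zfp36, chr13:48087691-48087940 on the minus strand for Btg2 and chr19:40399123-40399372 on the plus strand for Ier2.
Egr1: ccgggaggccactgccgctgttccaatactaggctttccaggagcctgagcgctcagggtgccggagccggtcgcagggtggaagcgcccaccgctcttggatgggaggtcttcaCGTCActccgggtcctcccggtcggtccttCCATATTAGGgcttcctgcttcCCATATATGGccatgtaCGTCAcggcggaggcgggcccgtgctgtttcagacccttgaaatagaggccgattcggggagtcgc
Zfp36: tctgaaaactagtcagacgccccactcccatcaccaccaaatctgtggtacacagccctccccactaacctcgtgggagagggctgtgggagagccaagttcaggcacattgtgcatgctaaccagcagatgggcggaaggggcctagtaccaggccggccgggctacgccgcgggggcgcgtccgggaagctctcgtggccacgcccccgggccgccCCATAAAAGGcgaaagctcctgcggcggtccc
Btg2: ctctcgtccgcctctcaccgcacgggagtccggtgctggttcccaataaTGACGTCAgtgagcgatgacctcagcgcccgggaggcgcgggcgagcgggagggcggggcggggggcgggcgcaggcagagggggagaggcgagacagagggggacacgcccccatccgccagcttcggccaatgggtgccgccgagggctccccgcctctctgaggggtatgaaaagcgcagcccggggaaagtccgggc
Ier2: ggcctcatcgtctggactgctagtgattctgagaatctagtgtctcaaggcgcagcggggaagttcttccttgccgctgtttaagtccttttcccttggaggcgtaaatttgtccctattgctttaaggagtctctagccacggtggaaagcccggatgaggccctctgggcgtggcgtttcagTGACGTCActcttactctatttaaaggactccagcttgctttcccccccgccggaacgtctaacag

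The Egr1 window held CArG boxes at bases 105 to 96 and 83 to 74 before the start, and the Zfp36 window held 1 at bases 32 to 23. Of 33469 RefSeq promoter windows of this length, 1.5% held a CArG box. The Btg2 and Ier2 windows each held a full cyclic AMP response element, at bases 201 to 194 and 66 to 59 before the start, as did 1.59% of all windows, and Egr1 held 2 short forms at bases 135 to 131 and 66 to 62. The short form was found in 18.2% of windows, and each full element contains 2 of them, 1 on each strand. The EGR motif GCGNGGGCG was found in Zfp36 and Btg2, against 4.29% of windows, the ETS motif CCGGAA in Ier2, against 12.6%, and the AP-1 motif TGANTCA in 0 of the 4, against 6.34%. The TATA motif TATAAA, sought on 1 strand, was found in 0 of the 4, against 8.06%. None of these motifs was in all 4 windows. A match describes letters in the window, and no binding was measured. A link between these letters and the levels of the genes was not tested.

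What the drug changed in injured kidneys was addressed by setting I/R + rapamycin against I/R. The fitted values of 7 of the 8 genes were lower with rapamycin. Fos averaged 17.8 ± 5.75 CPM in I/R + rapamycin and 198 ± 159 CPM in I/R, giving a log2 fold change of -3.47 with a standard error (SE) of 1.30. Jun averaged 116 ± 17.7 CPM in I/R + rapamycin and 437 ± 235 CPM in I/R (-1.92, SE 0.57), and Atf3 averaged 8.27 ± 1.49 CPM in I/R + rapamycin and 43.1 ± 31.6 CPM in I/R (-2.38, SE 1.05). The spread of each within I/R was wide, with I/R 1 low and the other libraries high.

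Egr1 averaged 59.5 ± 18.9 CPM in I/R + rapamycin and 243 ± 172 CPM in I/R, and its fitted difference was -2.03 (SE 0.84) on the log2 scale. The log2 fold changes of Btg2, Ier2 and Zfp36 were -1.72 (SE 0.74), -1.13 (SE 0.54) and -0.75 (SE 0.35). Ier3 had 0.25 (SE 0.17), with 60.3 ± 11.1 CPM in I/R + rapamycin and 50.6 ± 9.42 CPM in I/R. The median of the 8 was -1.82, against 0.01 for all 17335 genes tested. With every rapamycin library below every I/R library, Jun was alone among the 8 (1 of 8), where 12.8% of all genes had such groups.

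By edgeR's quasi-likelihood test with Benjamini-Hochberg adjustment over all genes, 0 of the 8 had an adjusted p under 0.05, where 0.127% of all genes were called. Lower with an unadjusted p under 0.05 were 3 of the 8 (Fos, Egr1 and Jun), where 9.14% of all genes were. Shares of all genes in this report are over every gene tested, 17335 in the edgeR fit. They include gene IDs without deposited FPKM values, whereas the 8 genes and the lists come from the 11235 genes with them. DESeq2 called 2 of the 8 lower, Fos and Jun, where it called lower 3.54% of the 13235 genes it gave an adjusted p. Because the genes were listed for their levels in these libraries, nothing is read from these counts. Without I/R 1 alone the log2 fold changes were -4.01 for Fos, -2.89 for Atf3, -2.52 for Egr1, -2.31 for Jun, -2.19 for Btg2, -1.52 for Ier2, -1.07 for Zfp36 and 0.11 for Ier3, with 0 of the 8 called. Without I/R 1 and sham 3 together the median was -2.25 and edgeR called 5 of the 8, where it called 128 of 17544 genes. Leaving out the lowest I/R library for its levels of these same genes makes the fold changes larger by construction, so nothing is read from that count either.

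Treated injured kidneys were also set against sham kidneys, in a comparison that shares the rapamycin libraries with the one above. Fos averaged 17.8 ± 5.75 CPM in I/R + rapamycin and 249 ± 242 CPM in sham, a log2 fold change of -3.80 (SE 1.32). Atf3 averaged 8.27 ± 1.49 CPM in I/R + rapamycin and 53.1 ± 55.5 CPM in sham (-2.68, SE 1.06), and Jun averaged 116 ± 17.7 CPM in I/R + rapamycin and 527 ± 279 CPM in sham (-2.19, SE 0.58). The log2 fold changes were -1.77 (SE 0.83) for Egr1, -1.58 (SE 0.73) for Btg2, -1.02 (SE 0.54) for Ier2, -0.44 (SE 0.34) for Zfp36 and 0.21 (SE 0.17) for Ier3. Again 7 of the 8 were fitted lower, with a median of -1.68 against 0.00 for all genes.

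Every rapamycin library lay below every sham library for 5 of the 8 genes, namely Fos, Egr1, Atf3, Jun and Btg2, where 9.65% of all genes had such groups. The edgeR test called 0 of the 8, where 0.156% of all genes were called, and 3 of the 8 (Fos, Atf3 and Jun) were lower with an unadjusted p under 0.05, where 7.75% of all genes were. DESeq2 called Fos and Jun lower (2 of 8), where it called lower 2.13% of the 17388 genes it gave an adjusted p. Without sham 3 the median was -1.02, and the log2 fold changes were -2.72 for Fos, -1.74 for Jun, -1.37 for Atf3, -1.10 for Egr1, -0.94 for Btg2, -0.64 for Ier2, -0.25 for Zfp36 and 0.17 for Ier3. Without sham 3 and I/R 1 together 0 of the 8 were called.

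The comparison of I/R with sham addressed the injury itself, and in it 4 of the 8 genes were fitted above 0 and 4 below. Jun averaged 437 ± 235 CPM in I/R and 527 ± 279 CPM in sham (-0.27 on the log2 scale, SE 0.55), and Zfp36 averaged 325 ± 144 CPM in I/R and 264 ± 69.9 CPM in sham (0.30, SE 0.34). The other values were -0.33 (SE 1.17) for Fos, -0.30 (SE 0.99) for Atf3, 0.26 (SE 0.80) for Egr1, 0.15 (SE 0.71) for Btg2, 0.11 (SE 0.54) for Ier2 and -0.04 (SE 0.17) for Ier3. Every one of the 8 was smaller than its standard error. The groups overlapped for all 8, so 0 of 8 had separate groups, where 14.6% of all genes had them in either direction.

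With edgeR's test 0 of the 8 were called between I/R and sham, where 0.0577% of all genes were called, and 0 of the 8 had an unadjusted p under 0.05 or a DESeq2 call. These estimates are imprecise, and the standard error of Fos alone was 1.17 on the log2 scale. The median was 0.03 over all libraries, 0.35 without I/R 1, 0.63 without sham 3 and -0.22 without I/R 3. Without I/R 1 and sham 3 together it was 1.07, but dropping the lowest I/R and the highest sham library moves it upward by construction. No direction between I/R and sham is given for these genes.

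**Figure D4:**
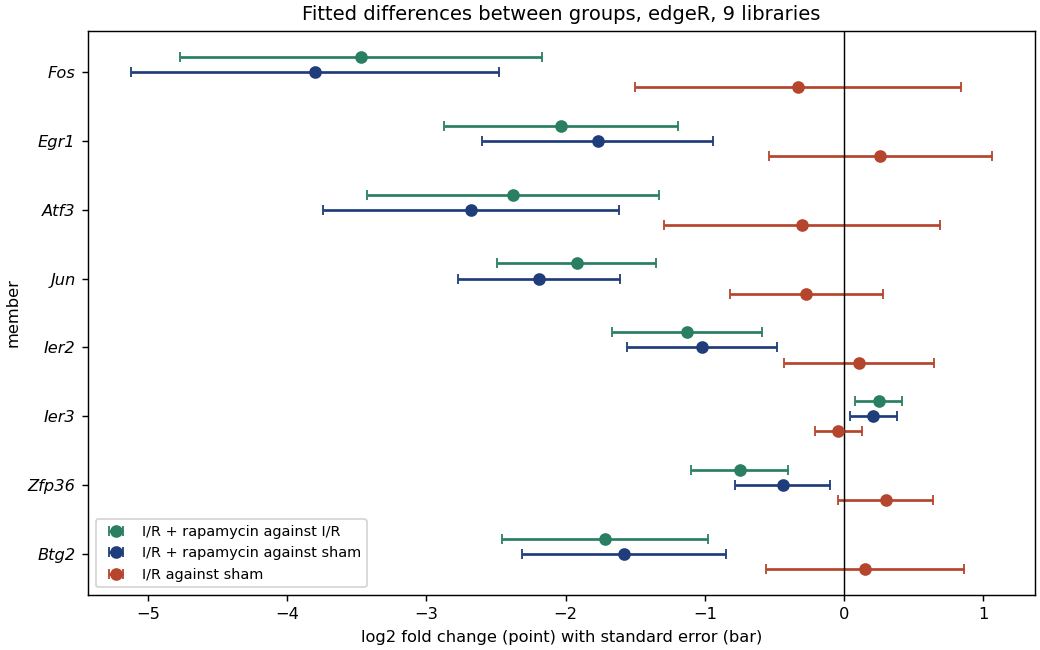
Fitted log2 fold change (point) with its standard error (bar) of each gene in the 3 comparisons, from 1 edgeR fit of 9 libraries. In both comparisons of the rapamycin group the values lie below 0 for all genes but Ier3, and between I/R and sham every bar crosses 0.

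Other immediate early genes were mostly fitted in the same direction at a smaller size. They were listed from general knowledge of the response, but with earlier results of these data known, and they share the same libraries. Of 57 listed, 48 were measured. Between I/R + rapamycin and I/R, 39 of the 48 were fitted below 0, with a median of -0.44, and 15 had every rapamycin library below every I/R library, as had 12.8% of all genes. The edgeR test called 1 of them, lower, and 12 were lower and 1 higher with an unadjusted p under 0.05, where 16.3% of all genes reached that p in either direction. DESeq2 called 8 lower and 1 higher, where it called lower 3.54% of the genes it gave an adjusted p. Between I/R + rapamycin and sham, 39 were again fitted below 0, with a median of -0.49, and 1 was called, lower, while 18 were lower and 5 higher with an unadjusted p under 0.05 (13.8% of all genes in either direction). DESeq2 called 11 of them lower and 4 higher, where it called lower 2.13% of the genes it gave an adjusted p. Between I/R and sham the median was -0.04, 0 were called by edgeR, 1 was called higher by DESeq2, and 3 were higher and 2 lower with an unadjusted p under 0.05 (9.42% of all genes).

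The called gene was Trib1 in both comparisons. Trib1 encodes a pseudokinase that brings proteins to the COP1 ubiquitin ligase, and its RNA turns over quickly. It was at 43.8, 47.5 and 46.9 CPM in I/R + rapamycin, at 85.2, 83.4 and 71.2 CPM in I/R and at 69.8, 83.5 and 66.8 CPM in sham. Unlike the 7 genes above, it was not low in I/R 1, which was its highest library. Trib1 fell by 0.80 on the log2 scale (SE 0.11, edgeR adjusted p = 0.0372) in I/R + rapamycin when set against I/R, and by 0.67 (SE 0.11, edgeR adjusted p = 0.0446) against sham. The call against I/R was lost without I/R + rapamycin 1, 2 or 3, I/R 2, I/R 3 or sham 1 (edgeR adjusted p from 0.051 to 0.168), and that against sham without I/R + rapamycin 1, 2 or 3, I/R 2, sham 1 or sham 2 (0.0723 to 0.206). Both were also lost with the replicate block (edgeR adjusted p = 0.0688 against I/R and 0.0973 against sham) and in fits of only the 6 libraries compared (0.052 and 0.0656).

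The next genes of the list did not pass edgeR's test over all genes, while DESeq2 called Fosl2, Sik1 and Csrnp1 lower against I/R (DESeq2 adjusted p = 0.000149, 7.09e-06 and 0.00141). Fosl2, a Fos family member, was at 8.68, 9.30 and 8.09 CPM in I/R + rapamycin, at 15.2, 17.4 and 19.1 CPM in I/R and at 15.5, 11.7 and 19.3 CPM in sham. The rapamycin libraries did not overlap with either of the other groups, and the log2 fold changes were -0.99 (SE 0.18, edgeR adjusted p = 0.0781) against I/R and -0.83 (SE 0.18, edgeR adjusted p = 0.102) against sham. Sik1, a salt-inducible kinase and CREB target, was at 38.6, 30.9 and 19.2 CPM in I/R + rapamycin, at 55.8, 73.4 and 84.3 CPM in I/R and at 62.5, 57.0 and 60.5 CPM in sham, with -1.27 (SE 0.24, edgeR adjusted p = 0.0918) against I/R. Csrnp1, a nuclear protein gene induced by axin, had -0.76 (SE 0.16, edgeR adjusted p = 0.0943) against I/R.

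Not all of the list lay below 0. Mcl1, a survival gene of the BCL2 family, averaged 211 ± 9.86 CPM in I/R + rapamycin and 160 ± 12.5 CPM in sham, a log2 fold change of 0.40 (SE 0.09, edgeR adjusted p = 0.109). DESeq2 called it higher against sham and against I/R (DESeq2 adjusted p = 0.00137 and 0.0279). Every rapamycin library lay above all libraries of the other groups. Mcl1 was 1 of the 4 genes of this list that DESeq2 called higher against sham. Between I/R and sham the smallest p values belonged to Zfp36l2, a relative of Zfp36 (-0.29, SE 0.08, edgeR adjusted p = 0.288), the stress kinase Plk3 (0.99, SE 0.27, edgeR adjusted p = 0.293), the clock gene Per1 (0.44, SE 0.13, edgeR adjusted p = 0.298) and Ier5, a relative of Ier2 (-0.89, SE 0.28, edgeR adjusted p = 0.369). None of these 4 passed, and Plk3 was called by DESeq2 alone.

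Genes around the response were counted in the same way. These lists share measured genes with the other immediate early genes, namely 2 of 8 MAP kinase phosphatases and feedback inhibitors, 4 of 13 AP-1 partners, 2 of 11 stress response genes, 1 of 11 p53 targets and 6 of 8 relatives and targets of Zfp36, so their counts are not separate. Over all genes, 16.3% had an unadjusted p under 0.05 in I/R + rapamycin set against I/R, 13.8% in I/R + rapamycin set against sham and 9.42% in I/R set against sham. Of 8 measured of 14 listed MAP kinase phosphatases and feedback inhibitors, edgeR called 1 lower in I/R + rapamycin against sham, and 0 in the other comparisons. In those, 2 were lower with an unadjusted p under 0.05 with rapamycin against I/R, and 3 were lower and 1 higher in I/R against sham, where DESeq2 called 1 lower in each. With rapamycin against sham, 4 of the 8 were lower with an unadjusted p under 0.05, where 7.75% of all genes were. DESeq2 called 3 of the 8 lower there, where it called lower 2.13% of the genes it gave an adjusted p. The gene called by edgeR was Dusp6, a phosphatase of ERK that is induced by ERK signalling, at 40.3, 42.9 and 33.1 CPM in I/R + rapamycin, at 54.4, 46.8 and 60.1 CPM in I/R and at 66.9, 78.5 and 85.3 CPM in sham. Its libraries did not overlap between any pair of the 3 groups. The log2 fold change was -0.99 (SE 0.13, edgeR adjusted p = 0.0233) against sham and -0.47 (SE 0.13, edgeR adjusted p = 0.156) against I/R, and I/R against sham had -0.52 (SE 0.13, edgeR adjusted p = 0.276). The call against sham was lost without I/R + rapamycin 1, I/R + rapamycin 2 or sham 2 (edgeR adjusted p = 0.121, 0.103 and 0.0814), and with the replicate block (0.0973). In the same list Spry1, a feedback inhibitor of receptor tyrosine kinases, had -0.68 (SE 0.16, edgeR adjusted p = 0.124) against sham.

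Of 13 measured AP-1 partners, edgeR called 0 in each comparison, and those lower with an unadjusted p under 0.05 numbered 4 in I/R + rapamycin against I/R, where 9.14% of all genes were. Against sham 6 were lower, where 7.75% of all genes were, 1 was higher, and in I/R against sham there were 0. Among them Atf7, a relative of Atf2, averaged 6.62 ± 0.612 CPM in I/R + rapamycin and 13.2 ± 1.87 CPM in I/R (-1.0 on the log2 scale, SE 0.18, edgeR adjusted p = 0.0757), and Jund, a Jun family member, averaged 54.9 ± 6.56 CPM in I/R + rapamycin and 88.7 ± 20.2 CPM in I/R (-0.69, SE 0.29, edgeR adjusted p = 0.29). In I/R + rapamycin, DESeq2 called 2 of the 13 lower against I/R and 4 lower against sham. It called lower 3.54% and 2.13% of the genes it gave an adjusted p in these comparisons.

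The kinases and factors that act upstream were nearly level at the RNA level. For 25 measured of 35 listed, the median log2 fold change was -0.05 in I/R + rapamycin against I/R, -0.03 in I/R + rapamycin against sham and 0.03 in I/R against sham, and edgeR called 0 in each, with 4, 2 and 2 at an unadjusted p under 0.05 (16.3%, 13.8% and 9.42% of all genes). DESeq2 called 1 of them, Crtc1, a coactivator of CREB, which was lower against I/R (-0.55, SE 0.16, edgeR adjusted p = 0.164). RNA levels do not show kinase activity. Of 11 measured genes of the integrated stress response, which includes Atf4 upstream of Atf3, edgeR and DESeq2 called 0 in each comparison. The numbers at an unadjusted p under 0.05 were 0 in I/R + rapamycin against I/R, 1 in I/R + rapamycin against sham and 1 in I/R against sham. Atf4 averaged 166 ± 8.22 CPM in I/R + rapamycin and 141 ± 17.0 CPM in sham (0.23, SE 0.14, edgeR adjusted p = 0.517).

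Of 11 measured p53 targets, edgeR called 0 in each comparison, with 5 at an unadjusted p under 0.05 in I/R + rapamycin against I/R, 6 against sham and 2 in I/R against sham (16.3%, 13.8% and 9.42% of all genes). Their directions were mixed. Sesn1 was at 37.4 ± 6.18 CPM in I/R + rapamycin and 24.6 ± 2.58 CPM in sham (0.61, SE 0.13, edgeR adjusted p = 0.115), and Gdf15 was at 5.27 ± 0.479 CPM in I/R + rapamycin and 17.0 ± 8.79 CPM in sham (-1.69, SE 0.43, edgeR adjusted p = 0.172). DESeq2 called 2 higher and 2 lower in I/R + rapamycin against sham and 0 in the others.

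Of 8 measured of 15 listed relatives and known targets of Zfp36, edgeR called 0 in each comparison. All 8 were fitted below 0 in I/R + rapamycin against sham. Of these, 4 had an unadjusted p under 0.05, where 7.75% of all genes were lower by this rule. DESeq2 called 2 of the 8 lower, where it called lower 2.13% of the genes it gave an adjusted p. The median of the 8 was -0.45 against I/R and -0.54 against sham in I/R + rapamycin, and -0.23 in I/R against sham. Zfp36l1, a relative, averaged 124 ± 8.39 CPM in I/R + rapamycin and 181 ± 51.5 CPM in sham (-0.55, SE 0.16, edgeR adjusted p = 0.20). In I/R + rapamycin against I/R 1 of these 8 had an unadjusted p under 0.05, and in I/R against sham 1 had (16.3% and 9.42% of all genes). All 17 listed heat shock genes were measured, and edgeR called 0 in each comparison. DESeq2 called Hspa1a and Hspa1b lower in I/R + rapamycin against sham, where it called lower 2.13% of the genes it gave an adjusted p. In that comparison 3 of the 17 had an unadjusted p under 0.05, where 13.8% of all genes had. There were 0 when set against I/R and 1 between I/R and sham (16.3% and 9.42% of all genes). Hspa1a and Hspa1b are near-identical copies, and the counting could have split reads between them.

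**Figure D5:**
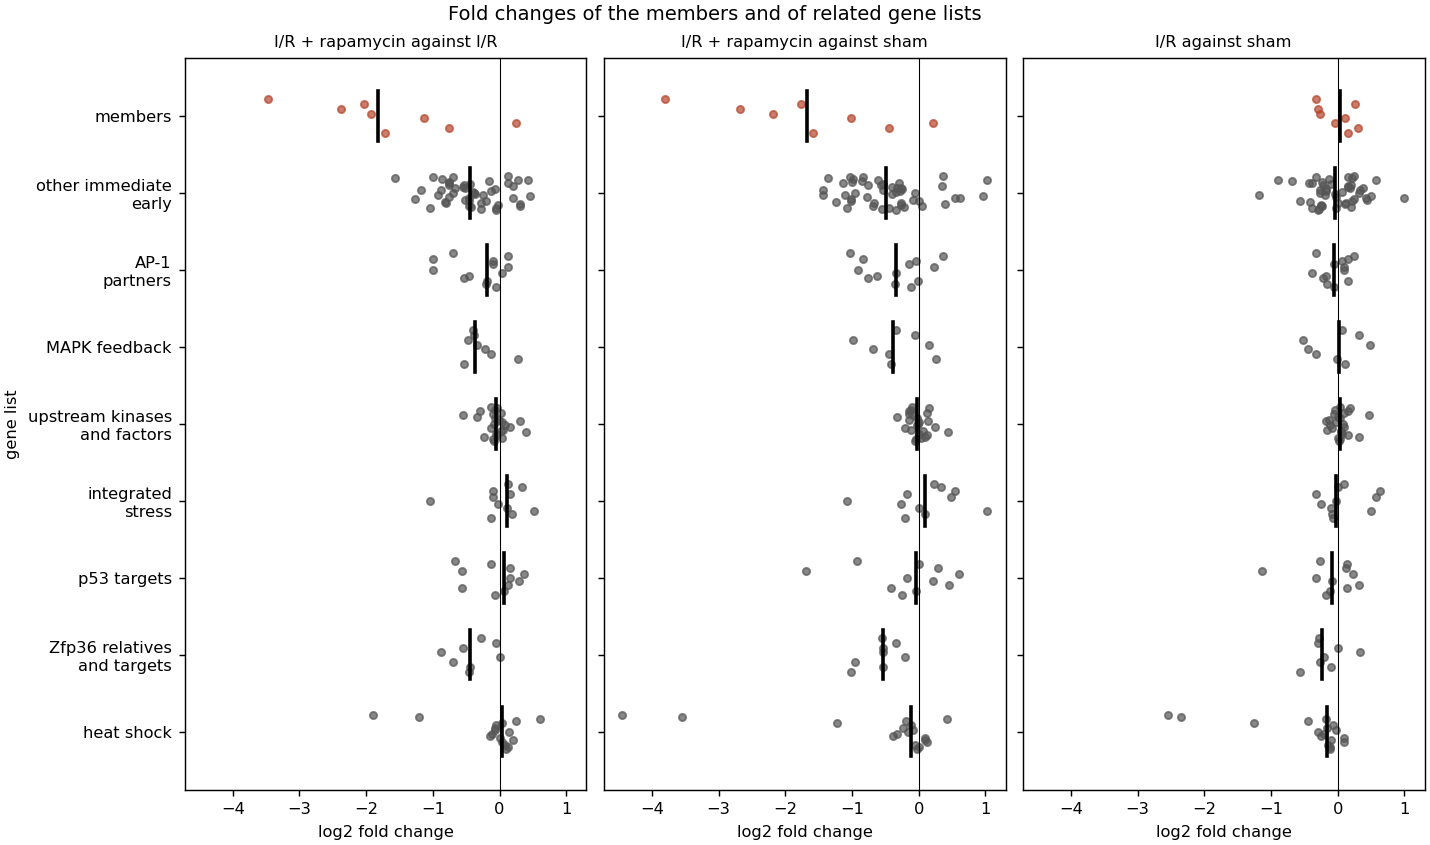
Fitted log2 fold change of each measured gene (points) and the median (bar) of the 8 genes, in red, and of 8 other lists, in 3 comparisons on 1 shared axis. The 8 genes have the lowest medians in both comparisons of the rapamycin group, at -1.82 and -1.68, though Hspa1a and Hspa1b lie as far left in the second. Relatives and targets of Zfp36 are at -0.45 and -0.54, other immediate early genes at -0.44 and -0.49, and the upstream genes lie near 0.

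Genes with the most similar course over the libraries were ranked by Pearson correlation with the mean pattern of the 8 genes, over 9 libraries and 10082 other genes with a symbol and a mean of at least 5 CPM. The first was Rgs1, a regulator of G protein signalling that is found in immune cells, with a correlation of 0.985 (Spearman 0.933), and 0.989 without the 2 libraries farthest from the median, I/R 3 and sham 3. It was at 10.4, 8.81 and 12.6 CPM in I/R + rapamycin, at 9.29, 60.4 and 57.1 CPM in I/R and at 19.9, 45.0 and 59.1 CPM in sham. I/R 1 again lay inside the rapamycin range. Next were Ccn1, a matricellular protein gene on the list of other immediate early genes, and Ppp1r15a, which encodes GADD34, both at 0.956.

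The other 7 were Ubap2l and Rgs2 at 0.954, Hmces at 0.948, the chaperone gene Hsp90b1 and the amyloid precursor gene App at 0.942, Nfkbia, the gene of the inhibitor of NF-kappa B, at 0.941, and Rasd1 at 0.938. Ccn1, Ppp1r15a and Nfkbia were on the list of other immediate early genes. The size of the pattern differed widely among these 10. Ccn1 ranged from 68.7 CPM in I/R 1 to 364 CPM in sham 3, whereas Ubap2l ranged only from 106 to 130 CPM and Hmces from 145 to 178 CPM. A high correlation with 9 libraries in a low and a high set needs only the same 2 sets, and nothing on shared control follows from it.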

How the data were processed

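Poly(A) RNA of 9 kidney samples was sequenced with paired reads, per the labels' protocols. According to the submitters' processing notes, the tools included HISAT2, StringTie, cutadapt and DESeq2, with Rnor_6.0 as build. For tool versions, strandedness and how reads were assigned to genes, the answer is not given in the sources used here, so reads of antisense or overlapping genes are not separable. The authors deposited raw counts for 30454 gene IDs, and FPKM for 11235 genes, all of which reach 1 FPKM in 8 libraries or more, and symbols come from that table.

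Counts were fitted with edgeR 4.0.16 in R 4.3.3 (TMM, filterByExpr, robust quasi-likelihood, 9 libraries, no covariate), leaving 17335 genes, with Benjamini-Hochberg adjustment and calls at an adjusted p under 0.05. P-values measure only the spread between these samples, which may be technical. CPM values use TMM library sizes, and the script was tested on simulated data. DESeq2 1.42.0 and limma 3.58.1, on log2(FPKM + 1) and log2(FPKM + 0.1), were alternatives, besides other normalization, no filter, a replicate block, 6 libraries only and libraries left out.

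The genes, the 8 other lists and the 12 marker lists were chosen with earlier results of these data known. Named were the listed genes, up to 4 genes of each other list with the smallest unadjusted p in a comparison and any called gene, the 10 genes with a symbol most correlated with the mean pattern, and Hspa1b, Hba-a1 and Hbb. Atf4 and the 2 IDs without a symbol were added after the values were seen. Libraries of a group differed by a chi-square per degree of freedom of 30.7 to 119, so none was a copy. Sequences are from RefSeq, GRCr8, with 4 of the 8 genes matched. One listed gene that the naming rule would give is not reported here.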

Additional observations from a re-analysis of the deposited data

How the results depend on the processing

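Of 204 recomputed answers (counts called and medians of the 8 genes), 138 stayed within the limits set for a change and 66 moved. Reversal was not assessed for them, because that label needs an adjusted p, which counts and medians lack. The numbers of genes called in I/R + rapamycin against I/R, I/R + rapamycin against sham and I/R against sham were 22, 27 and 10, and with DESeq2 they were 693, 568 and 234. With the replicate block they were 1, 7 and 1. Same-numbered deviations from the group means correlated between -0.191 and 0.127. No pairing by number was thus visible, though groups of 3 libraries cannot exclude it. Fits of only the 6 libraries compared called 6 genes against I/R and 2 between I/R and sham. Limma on log2(FPKM + 1) called 12 and 22, and on log2(FPKM + 0.1) 11 and 25, in these 2 comparisons. Without I/R 1 and sham 3 the numbers were 128, 104 and 67, and with single libraries left out they ranged from 0 to 47, from 3 to 47 and from 0 to 36. Of the 8 genes, DESeq2 called 2 in each rapamycin comparison and 5 were called against I/R without I/R 1 and sham 3, while leaving out single libraries called 0. Of the other immediate early genes, DESeq2 called 9, 15 and 1, the replicate block and the 6-library fits 0 and 0 in the rapamycin comparisons, and leaving out I/R 1 with sham 3 gave 12, 4 and 1. With single libraries left out these counts ranged from 0 to 3, from 0 to 2 and from 0 to 0. Medians of the 8 genes ranged from -2.25 to -1.50 against I/R, from -2.03 to -1.02 against sham and from -0.22 to 0.63 between I/R and sham, where the fit without I/R 1 and sham 3 gave 1.07. The cause of these shifts was not tested. The recomputation for Trib1, Dusp6, Fosl2, Sik1 and Csrnp1, and of the correlations and spreads without I/R 1 and sham 3, was added after the data were seen. The lowest count of any of the 8 genes was 346, for Atf3, so counting error was small beside the spread between libraries.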

Other observations

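The 2 IDs without a symbol in the authors' deposited FPKM table that followed the pattern most closely were looked at after their values were seen. Ranked were the 10373 genes with deposited FPKM values and a mean of 5 CPM or more outside the 8, and no other gene IDs. ENSRNOG00000069024 came first among them, with a Pearson correlation of 0.988 over 9 libraries. It was at 72.5, 63.4 and 74.6 CPM in I/R + rapamycin, at 55.3, 223 and 233 CPM in I/R and at 94.5, 177 and 213 CPM in sham. The authors' deposited table lists it as a protein-coding gene on chromosome 10 between Ergic1 and Neurl1b, and RefSeq GRCr8 places Dusp1, a phosphatase that inactivates MAP kinases, between genes of the same names.

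ENSRNOG00000065682 ranked 3 of 10373, with a correlation of 0.974. It was at 91.0, 67.4 and 79.8 CPM in I/R + rapamycin, at 56.0, 266 and 331 CPM in I/R and at 142, 246 and 348 CPM in sham. The authors' deposited table lists it as a long noncoding RNA on the minus strand of chromosome 19 between Hook2 and Prdx2, and RefSeq GRCr8 places Junb between genes of the same names. In both IDs I/R 1 was the lowest library, as it was for 4 of the 8 genes described above. Whether either ID carries reads of Dusp1 or Junb was not tested, and neither is counted with them.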
